A study of Homo sapiens with 6 samples.

Results

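The ceramide and sphingosine enzymes described here are 10 listed genes: the ceramidases ACER2, ACER3 and ASAH1, the sphingosine kinases SPHK1 and SPHK2, the sphingosine-1-phosphate lyase SGPL1, the ceramide synthases CERS2, CERS5 and CERS6, and the sphingomyelinase SMPD1. A gene was a member when a probe set carried its symbol in the platform annotation. On that basis 9 of the 10 were measured, each by 1 probe set, out of 22395 genes. No probe set carried the symbol SPHK2, so this gene has no value here. The list was chosen by function, with earlier results of the same 6 arrays known, and the values by which ACER2 was chosen were its lower log2 levels under Comp.4 than under Comp.2. The levels and differences of all members are therefore given as descriptions with their errors. Counts of members past a threshold are printed beside the share of all genes past it, and nothing is read from them. The list does not hold every enzyme of these functions: CERS3, CERS4, ACER1 and ASAH2, outside it, had mean levels below the median gene (5.35). All 9 measured members lay above it, so a share of all genes is not a share of genes of like level.

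Ceramide is the central lipid of sphingolipid metabolism and is linked to growth arrest and cell death. Ceramidases cut it into sphingosine and a fatty acid, sphingosine kinases phosphorylate sphingosine to sphingosine-1-phosphate, a signalling lipid that favours survival, and the lyase SGPL1 degrades that product irreversibly. Ceramide synthases run the other way, joining a fatty acid to a sphingoid base, and sphingomyelinases release ceramide from sphingomyelin. The balance between ceramide and sphingosine-1-phosphate is often described as a switch between death and survival of tumour cells. The arrays measured transcripts alone; enzyme activity and lipids were not measured.

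RNA came from A549, an established human lung adenocarcinoma cell line, in 3 groups of 2 arrays each. One group received vehicle, one 2 µM of Comp.2 and one 2 µM of Comp.4, all at 24 h after plating, and RNA was taken on day 2. The series title names the compounds as sequence-specific inhibitors of histone acetyltransferases, and the labels give the compound family as 646-PIP in the design and as 664-PIP in the treatment protocol. The labels do not say whether the 2 arrays of a group came from separate cultures, so errors and p-values reflect the scatter of these samples alone, possibly only technical scatter. All 3 groups are 1 cell line at 1 time, and each compound was given at 1 dose.

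Values are log2 RMA levels, in which a difference of 1 is a doubling of signal. Array medians lay between 4.55 and 4.56, and precision is limited by having 2 arrays in a group. Of 7 epithelial markers 6 lay above the median gene (5.35), among them CDH1 at 10.23 and KRT18 at 8.20. None of 7 alveolar type II markers did, although the labels describe the line as alveolar. Above the median gene were 1 of 6 fibroblast, 1 of 6 endothelial and 1 of 6 leukocyte markers, namely COL1A1 at 5.44, CLDN5 at 5.74 and CD14 at 6.02. No marker of any of these lists passed in any comparison. In RNA of bulk samples, fewer cells of a kind and less RNA per cell cannot be told apart.

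Both Comp.2 arrays lay outside the range of the other 4 arrays for ACER2, SMPD1 and CERS2, above it, and for SGPL1, below it. The share of all genes with this pattern was not counted, so nothing is read from it. Against vehicle alone, a looser condition, 22.7% of all genes were higher without overlap and 21% lower. ACER2 was chosen in part through its Comp.2 arrays, and CERS2 differed from vehicle by only 0.07 (95% interval -0.10 to 0.23). The sequences just before the transcription start are shown for the 3 of these 4 members that the RefSeq table (GRCh38.p14) holds. They can thus be read side by side. Each run is the 250 bases before the start, 5′ to 3′, with matches to the GC box (GGGCGG, either strand) in capitals.
ACER2, chr9:19408759-19409008, plus strand: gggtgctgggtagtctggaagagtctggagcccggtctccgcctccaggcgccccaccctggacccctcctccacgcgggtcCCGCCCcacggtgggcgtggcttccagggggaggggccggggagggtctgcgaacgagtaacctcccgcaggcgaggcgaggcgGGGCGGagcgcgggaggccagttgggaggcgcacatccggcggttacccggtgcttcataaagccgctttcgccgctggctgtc
SMPD1, chr11:6390224-6390473, plus strand: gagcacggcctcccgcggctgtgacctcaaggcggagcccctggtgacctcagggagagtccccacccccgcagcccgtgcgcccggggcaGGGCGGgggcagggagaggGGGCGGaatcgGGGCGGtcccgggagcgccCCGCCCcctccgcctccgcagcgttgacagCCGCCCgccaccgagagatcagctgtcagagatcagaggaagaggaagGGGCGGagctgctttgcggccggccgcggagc
SGPL1, chr10:70815698-70815947, plus strand: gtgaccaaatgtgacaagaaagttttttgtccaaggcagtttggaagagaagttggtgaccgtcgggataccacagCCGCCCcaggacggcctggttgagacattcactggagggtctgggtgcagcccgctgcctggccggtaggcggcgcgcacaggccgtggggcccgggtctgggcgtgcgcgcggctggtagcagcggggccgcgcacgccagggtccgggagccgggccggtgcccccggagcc

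All 3 windows were rich in G and C, at 72.4% for ACER2, 75.2% for SMPD1 and 68.8% for SGPL1, against a median of 58% over 35116 promoter windows of the same length. The other members in the table were alike in this, at 81.2% for ACER3, 76.8% for CERS5 and 70.4% for CERS6. The SPHK1 windows had 66.4% to 80.8%, and those of SPHK2 62.8% and 67.2%. A high share of G and C was thus not particular to the 3 windows shown. The ACER2 window held 2 GC box matches, that of SMPD1 6 and that of SGPL1 1, and 42.6% of all windows held at least 1. Windows of the other members held from 0 (in SPHK1 and SPHK2) to 5 (ACER3 and CERS5). Each of the 3 windows held 1 E-box (CANNTG), as 61.8% of all windows held at least 1. None held a TATA box (TATAA, in 18.9% of all windows) or a CCAAT box (CCAAT, in 32.0%). Among the windows of the other members none held a TATA box either, and only that of CERS6 held a CCAAT box. Both strands were searched, and matches of different motifs may overlap. The p53 half-site, searched by its degenerate consensus, had no match in these 3 windows. Over the 11 windows of the 8 members in the table it matched 1, the SPHK1 window at chr17:76385028-76385277, and 5.57% of all windows held a match. Such matches are descriptions of letters in a window and not of bound sites.

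ACER2 is the alkaline ceramidase of the Golgi and a known p53-induced gene. It was chosen for its difference between the compounds and had the widest spread between groups of the members. Its log2 level was 5.80 and 5.52 on the vehicle arrays, 6.38 and 6.45 under Comp.2, and 5.63 and 5.54 under Comp.4. Both Comp.2 arrays lay above all others, while the Comp.4 arrays fell within the range of vehicle. The mean was 5.66 ± 0.20 (SD, n = 2) in vehicle, 6.41 ± 0.05 under Comp.2 and 5.59 ± 0.06 under Comp.4.

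The ACER2 level was thus 1.68-fold higher under Comp.2 than in vehicle, a log2 difference of 0.75 (SE 0.11, 95% interval 0.50 to 1.00). Comp.4 differed from vehicle by -0.08 (-0.33 to 0.18). At the same dose and day, the level under Comp.4 was 1.77-fold lower than under Comp.2, at -0.83 (SE 0.11, -1.08 to -0.57). Of the 3 comparisons this last was the 1 in which the gene passed the threshold, an adjusted p below 0.05 in limma over all 22395 genes (0.179% of them were called lower there), and it is the comparison that earlier drew attention to it. The 2 vehicle arrays differed more than those of the other groups. Without vehicle replicate 1 the Comp.2 difference from vehicle was 0.89, and without vehicle replicate 2 it was 0.61. The Comp.4 difference from vehicle was 0.06 and -0.21 in those fits, so its sign was not settled.

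ACER2 lost its call between the compounds when any 1 of the 6 arrays was left out, with the difference between -0.87 and -0.78. So did nearly all genes called in that comparison, since such fits leave 1 array in a group, and nothing is read from the loss. Against vehicle under Comp.2, ACER2 passed with a variance trend, among genes above the median gene or with protein-coding genes alone tested. It did not pass there in the fit reported here. Those settings called 388 of 22395, 233 of 11197 and 62 of 17029 genes in that comparison.

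**Figure D1:**
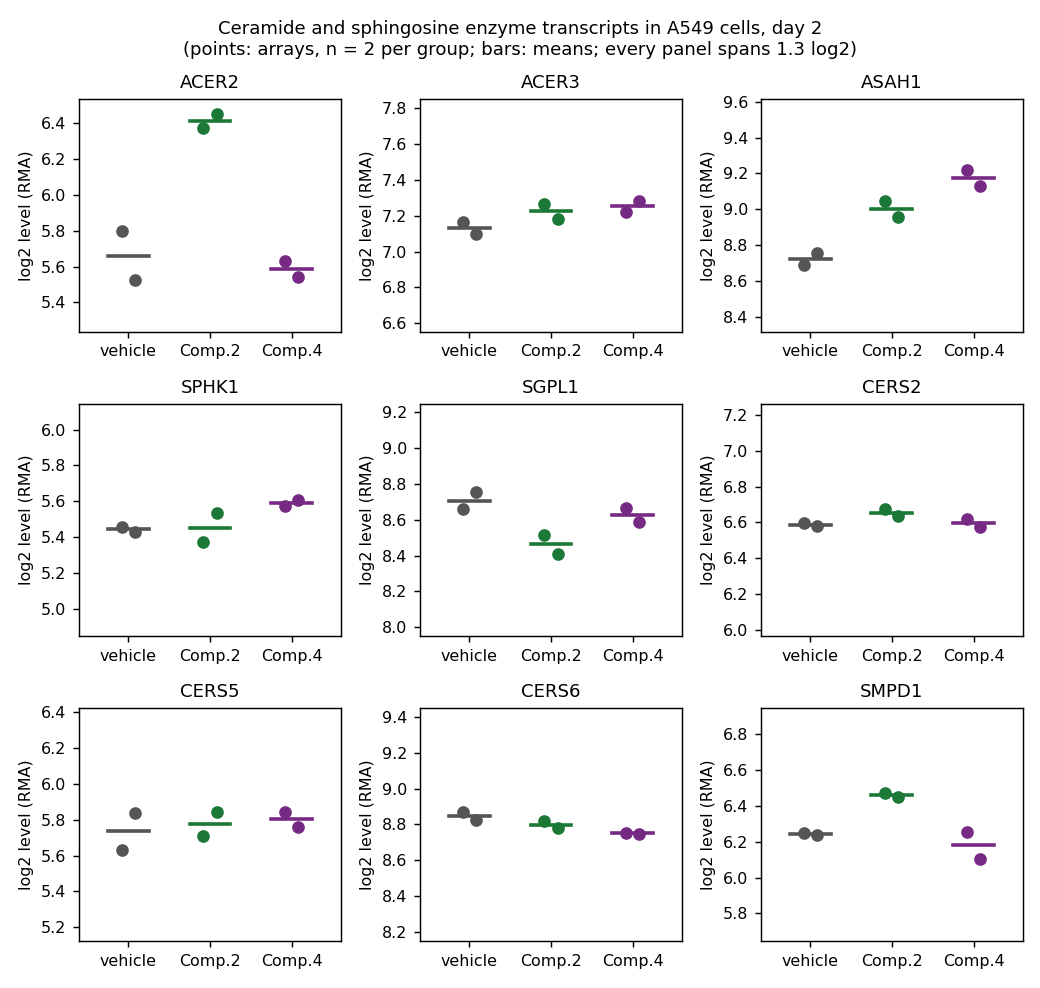
Log2 RMA level (vertical axis) of the 9 measured enzymes in the 3 groups (horizontal axis); points are single arrays, bars are means of 2 arrays, and every panel spans the same range. The Comp.2 arrays of ACER2 sit at 6.38 and 6.45, above the other 4 arrays at 5.52 to 5.80, and the ASAH1 means step from 8.72 in vehicle to 9.00 under Comp.2 and 9.18 under Comp.4.

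ASAH1, the acid ceramidase of the lysosome, had another profile. Its level was 8.69 and 8.76 in vehicle, 9.04 and 8.96 under Comp.2, and 9.22 and 9.13 under Comp.4. The 3 groups did not overlap, with vehicle at the bottom and Comp.4 at the top. Against vehicle the log2 difference was 0.28 under Comp.2 (SE 0.08, 95% interval 0.09 to 0.46) and 0.45 under Comp.4 (0.27 to 0.63), which is 1.21-fold and 1.37-fold. Between the compounds it was 0.17 (-0.01 to 0.36). None of these differences passed the threshold over all genes, though the one under Comp.4 did with a variance trend or among genes above the median gene, and the one under Comp.2 with a variance trend. Under Comp.4 those settings called 1226 of 22395 and 839 of 11197 genes, and under Comp.2 the trend called 388 of 22395.

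ACER3, the alkaline ceramidase acting on unsaturated ceramides, moved little. Its arrays read 7.17 and 7.10 in vehicle, 7.27 and 7.18 under Comp.2, and 7.22 and 7.28 under Comp.4. The treated arrays lay above the vehicle arrays by a narrow margin and overlapped each other. The difference from vehicle was 0.09 under Comp.2 (-0.09 to 0.27) and 0.12 under Comp.4 (-0.06 to 0.30). ACER3 and ASAH1 shared the order of their group means, vehicle below Comp.2 below Comp.4, with r = 0.78 over the 6 arrays. For ACER3, however, Comp.4 differed from Comp.2 by only 0.03 (-0.15 to 0.21). That value ran from -0.01 to 0.07 over the alternative settings, so the order was not settled for ACER3. ACER2 stood apart under Comp.2 alone. Differences between the genes were not tested.

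SMPD1, the acid sphingomyelinase of the lysosome, releases ceramide from sphingomyelin. It read 6.25 and 6.24 in vehicle, 6.47 and 6.45 under Comp.2, and 6.25 and 6.11 under Comp.4. As for ACER2, both Comp.2 arrays lay above the rest and Comp.4 overlapped vehicle. The difference was 0.22 for Comp.2 against vehicle (SE 0.08, 95% interval 0.03 to 0.41), -0.06 for Comp.4 against vehicle (-0.25 to 0.12) and -0.28 for Comp.4 against Comp.2 (-0.47 to -0.09). None passed the threshold.

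The fates of sphingosine were represented by a kinase and the lyase. SPHK1, the cytosolic sphingosine kinase, read 5.45 and 5.43 in vehicle, 5.37 and 5.54 under Comp.2, and 5.58 and 5.61 under Comp.4. The Comp.4 arrays lay above the others, and the Comp.2 arrays spanned those of vehicle. Like ACER2 and CERS5, SPHK1 was close to the median gene (5.35), where RMA values are pressed together by background, so that the differences and folds of these 3 genes may be understated. Comp.4 differed from vehicle by 0.15 (-0.05 to 0.34) and Comp.2 by 0.01 (-0.18 to 0.20).

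SGPL1, the lyase, read 8.66 and 8.76 in vehicle, 8.52 and 8.41 under Comp.2, and 8.66 and 8.59 under Comp.4. Both Comp.2 arrays lay below all others, while Comp.4 overlapped vehicle. The difference from vehicle was -0.24 under Comp.2 (SE 0.08, 95% interval -0.43 to -0.05) and -0.08 under Comp.4 (-0.27 to 0.11), and between the compounds it was 0.16 (-0.03 to 0.35). No SGPL1 difference passed the threshold.

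The ceramide synthases, which differ in the length of the fatty acid they attach, varied little. CERS6, which favours long-chain acids, read 8.87 and 8.82 in vehicle, 8.82 and 8.78 under Comp.2, and 8.75 and 8.75 under Comp.4. Its means stepped down from vehicle to Comp.2 to Comp.4 without overlap between groups, by no more than 0.09 in all. CERS2, which makes very-long-chain ceramides, ranged from 6.58 to 6.67 over the 6 arrays. CERS5, another enzyme of long-chain ceramides, ranged from 5.63 to 5.85, and its groups overlapped in every comparison. The 9 differences of the 3 synthases lay between -0.09 and 0.07, and the widest of their 95% intervals, those of CERS5, reached from -0.21 to 0.30 over the 3 comparisons.

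**Figure D2:**
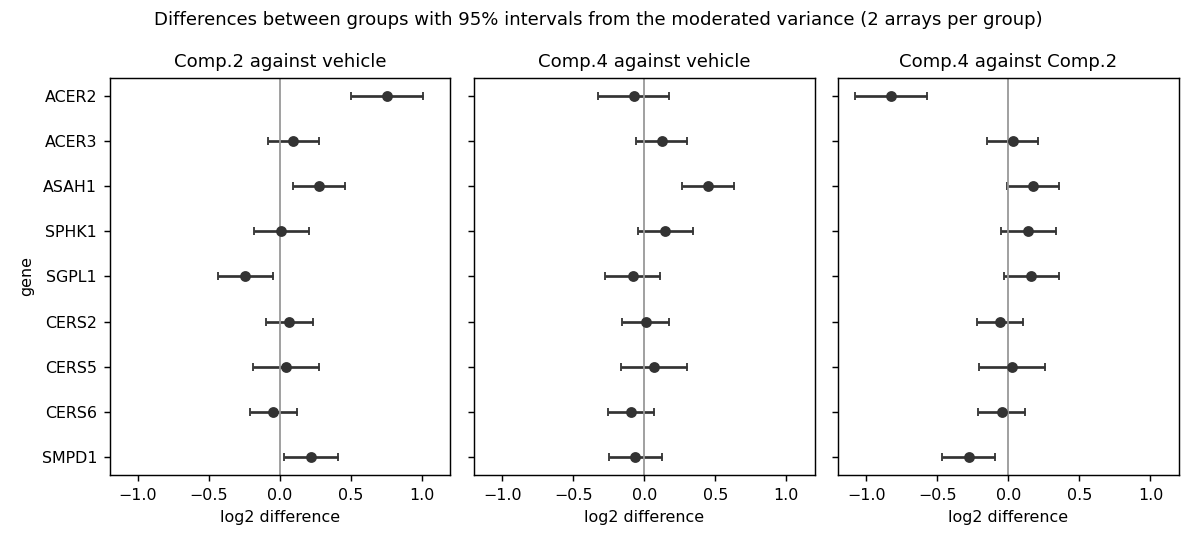
Log2 difference between groups (horizontal axis, 1 panel per comparison) for the 9 measured enzymes (vertical axis), with 95% intervals from the moderated variance of limma, 2 arrays per group. ACER2 lies at 0.75 and -0.83 in the panels that involve Comp.2, ASAH1 at 0.45 under Comp.4, and the ceramide synthases near 0 throughout.

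Over the 9 measured members, Comp.2 against vehicle had a median log2 difference of 0.07 with 7 values above 0. All 22395 genes had a median of 0.00 with 11485 values above 0. In limma no member was called in that comparison, against 0.196% of all genes. At an unadjusted p below 0.05 there were 3 higher (ACER2, ASAH1 and SMPD1), against 6.23% of all genes, and 1 lower (SGPL1), against 4.94%. Without ACER2, whose Comp.2 arrays had a part in its choice, 2 were higher and 1 lower. The arrays of the groups did not overlap for 5 higher members, against 22.7% of all genes, and for 2 lower ones, against 21%.

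For Comp.4 against vehicle the median was 0.01, against 0.02 over all genes, and in limma no member was called, against 0.147% of all genes. At an unadjusted p below 0.05 there was 1 higher, ASAH1, against 8.64% of all genes, and 0 lower, against 7.88%. The arrays did not overlap for 3 higher members (27.2% of all genes) and 1 lower (22.2%).

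For Comp.4 against Comp.2 the median was 0.02, against 0.01 over all genes. The 1 called member was ACER2, which was lower, against 0.371% of all genes called in either direction, in the comparison that had drawn it into the list. At an unadjusted p below 0.05 there were 0 higher (7.52% of all genes) and 2 lower, ACER2 and SMPD1 (7.45%), of which 1 is left without ACER2. The arrays did not overlap for 3 higher members (23.7%) and 4 lower (21.6%). The first and last comparison share the Comp.2 arrays and the first 2 share vehicle, so their values are not independent.

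Among all genes, the size of the ACER2 difference stood at the 99.8th percentile for Comp.2 against vehicle, at the 38.3rd for Comp.4 against vehicle and at the 99.8th between the compounds. ASAH1 stood at the 92.8th, 97.9th and 74.2nd percentile in the same order. SMPD1 stood at the 86.7th, 32.8th and 90.9th, and SGPL1 at the 89.8th, 41.6th and 70.8th. The ceramide synthases reached at most the 46.5th percentile, that of CERS6 for Comp.4 against vehicle. ACER2 was chosen by its difference between the compounds, and Comp.2 against vehicle uses the same Comp.2 arrays. Its 99.8th percentiles therefore follow in part from that choice, and nothing is read from them.

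The likeness of other profiles to that of ACER2 was measured by Pearson's r over the 6 arrays, among 213 other protein-coding genes above the median gene whose group means spanned at least 0.5. The 8 most alike were TNFRSF10D, a decoy receptor of the death ligand TRAIL (r = 0.99), the membrane protein genes STOM (0.99) and TM7SF3 (0.98), EFCAB10 (0.97), the translesion DNA polymerase gene POLH (0.97), the RNA-binding p53 target ZMAT3 (0.97), the desmosomal cadherin gene DSC3 (0.96) and the heparan sulfatase gene SULF2 (0.96). These points share arrays and groups, and r over 6 arrays in 3 pairs mainly reflects the group means. Within the members, ACER2 had r = 0.93 with SMPD1, 0.86 with CERS2 and -0.86 with SGPL1, and 0.03 with ASAH1. Under Comp.2 the 8 genes lay 0.40 (TNFRSF10D) to 1.09 (SULF2) above vehicle. Under Comp.4 they lay between -0.16 (DSC3) and 0.12 (SULF2) from it. A higher level under Comp.2 follows from choosing genes by their likeness to ACER2.

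**Figure D3:**
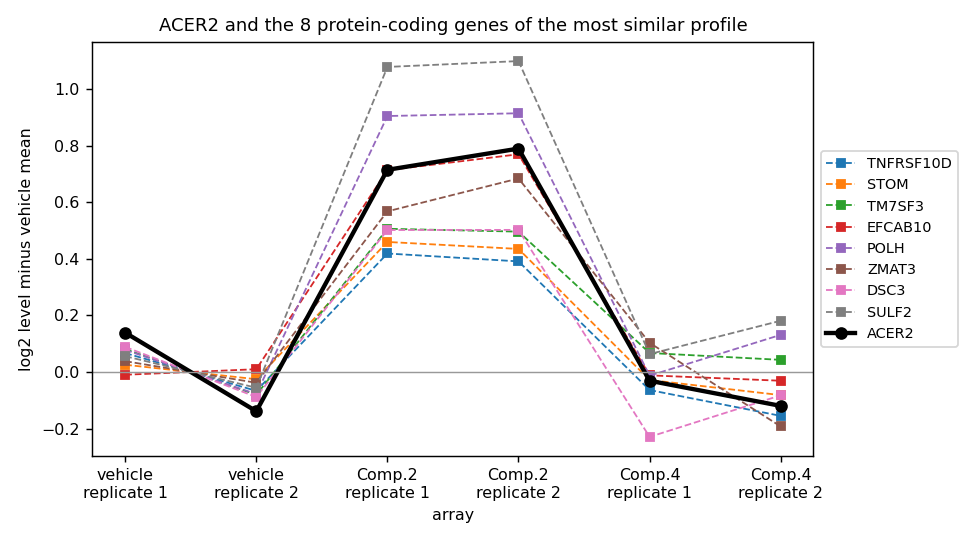
Log2 level minus the mean of the vehicle arrays (vertical axis) on each of the 6 arrays (horizontal axis) for ACER2 (black) and the 8 most similar protein-coding genes (coloured); lines only join the points of a gene. The Comp.2 arrays of all 9 genes lie above their vehicle and Comp.4 arrays, SULF2 by the most, at a mean of 1.09 over vehicle.

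The rest of the pathway was read from a list of 61 other sphingolipid genes written from textbook knowledge, of which 53 were measured. In limma none of the 53 was called in any comparison. At an unadjusted p below 0.05 there were 5 higher and 2 lower under Comp.2 (6.23% and 4.94% of all genes), 7 and 1 under Comp.4 (8.64% and 7.88%), and 5 and 3 for Comp.4 against Comp.2 (7.52% and 7.45%). Their median differences were 0.03, 0.03 and 0.01 in the same order. The arrays did not overlap for 20 higher and 10 lower of the 53 under Comp.2, where 22.7% and 21% of all genes were so, for 19 and 11 under Comp.4 (27.2% and 22.2%), and for 18 and 10 between the compounds (23.7% and 21.6%). The largest value of any of the 53 was 0.40, the size of the difference of SMPD4 under Comp.2. The size for ACER2 was larger in either comparison involving Comp.2, but ACER2 was chosen for its difference between the compounds. The 53 came from textbook knowledge, so nothing is read from that contrast.

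By role, the 11 genes of de novo synthesis and its regulators, which included the sphingomyelinase-associated NSMAF, had medians of 0.01, 0.04 and 0.06 in the order of the 3 comparisons. Those of the 12 sphingosine phosphatases, transporters and receptors were -0.03, 0.08 and 0.07. The 11 sphingomyelin genes had 0.07, 0.02 and 0.01, the 15 glycosphingolipid genes 0.04, 0.00 and 0.00, and the 4 remaining synthases and ceramidases 0.11, 0.08 and -0.01. No role group had a called gene.

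**Figure D4:**
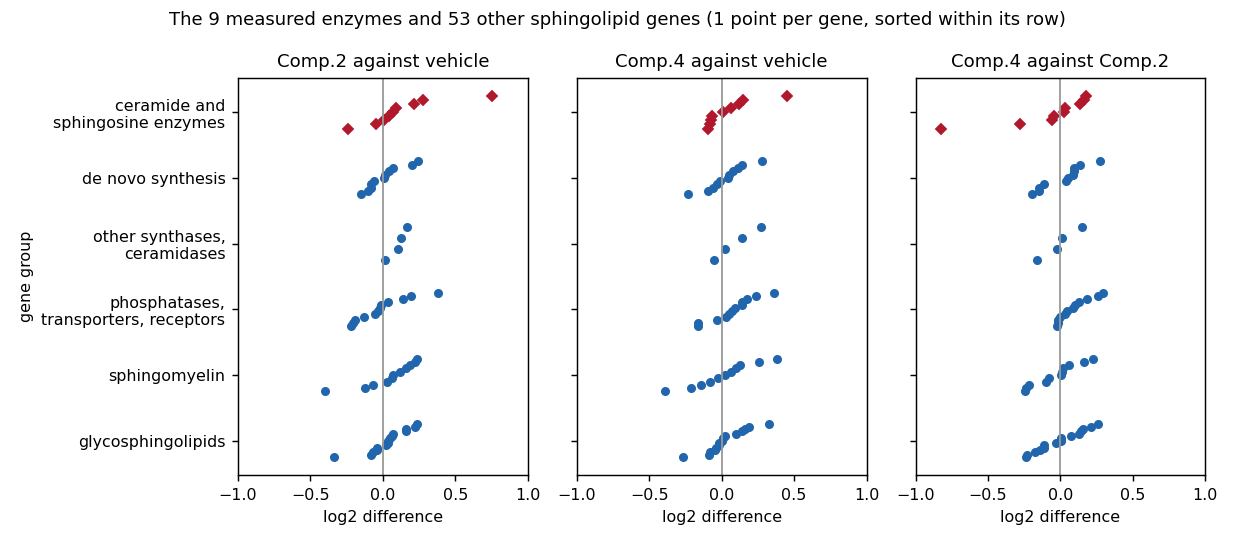
Log2 difference (horizontal axis) in the 3 comparisons for the 9 measured enzymes (red diamonds) and 53 other sphingolipid genes (blue points) by role (vertical axis); each point is a gene, sorted within its row. The other genes stay between -0.40 and 0.39, while ACER2 lies at 0.75 under Comp.2 and at -0.83 between the compounds. ACER2 was chosen for its difference between the compounds, so its place outside the others follows in part from that choice.

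SMPD4, a neutral sphingomyelinase gene, read 6.08 and 6.14 in vehicle, 5.52 and 5.90 under Comp.2, and 5.68 and 5.76 under Comp.4. Its arrays lay below vehicle under both compounds, at -0.40 (SE 0.13, adjusted p = 0.344 in limma) and -0.39 (adjusted p = 0.21 in limma), with the vehicle arrays shared. HEXA, a subunit of the lysosomal hexosaminidase that degrades gangliosides, read 8.26 and 8.29 in vehicle, 8.28 and 8.39 under Comp.2, and 8.63 and 8.57 under Comp.4. Both its Comp.4 arrays lay above the rest, at 0.33 over vehicle (SE 0.08, adjusted p = 0.128 in limma) and 0.26 over Comp.2 (adjusted p = 0.201 in limma). ORMDL2, one of the proteins that restrain the first enzyme of ceramide synthesis, read 8.63 and 8.57 in vehicle, 8.70 and 8.51 under Comp.2, and 8.88 and 8.88 under Comp.4. It too was apart under Comp.4 alone, at 0.28 over vehicle (adjusted p = 0.196 in limma) and 0.27 over Comp.2 (adjusted p = 0.232 in limma).

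Further genes with the larger differences were the ceramide-1-phosphate transfer protein gene CPTP, at 0.24 under Comp.2 (adjusted p = 0.424 in limma) and 0.25 under Comp.4 (adjusted p = 0.251 in limma) over the shared vehicle arrays, and the arylsulfatase gene ARSA, which acts on sulfatides, at 0.23 under Comp.2 (adjusted p = 0.441 in limma). SPNS2, an exporter of sphingosine-1-phosphate, was 0.26 higher under Comp.4 than under Comp.2 (adjusted p = 0.318 in limma). HEXA passed against vehicle under Comp.4 among genes above the median gene (adjusted p = 0.0332 in limma) and with a variance trend (adjusted p = 0.0102 in limma), as did ORMDL2 with the trend (adjusted p = 0.0344 in limma). In that comparison these settings called 1 of 40 and 3 of 53 wider genes. They called 839 of 11197 and 1226 of 22395 of all genes, so nothing is read from these calls.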

How the data were processed

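Total RNA of 6 A549 samples, 2 each of vehicle, Comp.2 and Comp.4, was measured on whole-transcript microarrays of Affymetrix. The authors deposited log2 levels from RMA, which corrects background, equalises the arrays and summarises probes, per the submitters' processing notes. The notes list Transcriptome Analysis Console 2.0 and Affymetrix Expression Console 1.3.1 with no stated role. A change shared by most transcripts cannot be seen after such scaling, and dim genes show compressed differences. Scanner files and detection calls were not used here.

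Of 53617 probe sets, 23871 had 1 gene symbol in the platform annotation, 1842 several and 27904 were unnamed here; symbols were updated through Entrez numbers in a RefSeq table. The brightest probe set stood for a gene, which left 22395 genes. limma 3.58.1 in R 4.3.3 fitted a mean per group to all 6 arrays (3 residual and 3.71 prior degrees of freedom), with two-sided p-values adjusted by Benjamini-Hochberg over all genes at a threshold of 0.05. Standard errors and 95% intervals come from the moderated variance. The procedure was also run on simulated data with independent noise on each array. Such data cannot speak to arrays that are technical replicates, and no result here rests on that run. A permutation test of 2 arrays against 2 cannot reach the threshold and was not run. Alternatives were median centring, a variance trend, a robust prior, brighter genes only, averaged probe sets, all probe sets, protein-coding genes only, 2-group fits, a replicate block and each array left out.

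The members and lists were chosen with earlier results of these data known. Genes named were all members, the 3 pathway genes per comparison with the largest differences whose arrays did not overlap and that lay above the median gene, and the 8 profiles most like ACER2; marker genes, and pathway genes called under an alternative only, were named for the count they belong to.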

Additional observations from a re-analysis of the deposited data

How the results depend on the processing

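Over all genes, the number called moved with the setting. Tested were 22395 genes, or 11197 above the median gene, 17029 protein-coding genes or 53617 probe sets. Under Comp.2 against vehicle it was 44 as reported, 388 with a variance trend, 233 among genes above the median gene, 0 with every probe set tested, 15 with the replicate block, 14 in a fit of only the 2 groups compared, and 0 to 14 without any 1 array, with 62 for protein-coding genes alone. For Comp.4 against vehicle these counts were 33, 1226, 839, 99, 4, 0 and 0 to 0, with 0 for protein-coding genes alone. For Comp.4 against Comp.2 they were 83, 1075, 716, 2, 0, 0 and 0 to 1, with 47 for protein-coding genes alone. The limma count at an unadjusted p below 0.05 with the replicate block was 1319 higher and 1050 lower, 1822 and 1654, and 1609 and 1518.

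Members called under Comp.2 against vehicle numbered 0 as reported, 2 with a variance trend (ACER2 and ASAH1), and 1 (ACER2) both among genes above the median gene and with protein-coding genes alone. Under Comp.4 against vehicle 1 (ASAH1) passed with a variance trend and 1 (ASAH1) among genes above the median gene, against 0. Between the compounds the 1 called member, ACER2, was lost (0) with every probe set tested, with the replicate block, in a fit of only the 2 groups compared and without any 1 array (0 to 0). Of the wider genes, 3 passed with a variance trend under Comp.4 against vehicle (HEXA, ORMDL2 and PSAP) and 1 (HEXA) among genes above the median gene; between the compounds 3 passed with the trend (HEXA, ORMDL2 and PLPP2). Of 405 recomputed member differences, 393 kept their sign, and the 12 others belonged to differences of at most 0.08 in size. Centring the arrays on their medians, a robust prior and the mean of a gene's probe sets changed no member call.

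Over all genes the replicate numbers of the labels showed no pairing of the arrays: deviations of same-numbered arrays from their group means had correlations between -0.04 and 0.03. Such correlations cannot show whether the replicate number had a part in a single gene. The block costs degrees of freedom and left the differences as they were, as for ACER2 under Comp.2 against vehicle (0.75). Why a call was lost under it was not tested. SPHK2 has no value and ACER2, SPHK1 and CERS5 lie near the median gene, where signal over background limits what can be seen.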
